A study of Sus scrofa with 18 samples.

Results

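The miR-30 family was measured in small RNA libraries from porcine backfat, the subcutaneous fat layer along the back. Its members were taken by name from the table of sequence variants: every mature microRNA (miRNA) called miR-30a, 30b, 30c, 30d or 30e, with or without an arm suffix. This gave 10 mature arms of 240 in the table, 5 of them 5p arms and 5 of them 3p arms, from 6 hairpin precursors of 210. Together they held 1190 sequence forms, of which 1164 were distinct among the 16636 distinct sequences of the table. All 10 arms had counts in all 18 libraries, and all 10 passed the filter on low counts. Here 5p and 3p name the strands cut from the left and the right side of a hairpin, and miR-30d was listed with its 5p arm only.

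The 18 animals were Italian Large White pigs, 9 labelled with high and 9 with low backfat deposition, kept in the same housing on the same diet and weighing 150 to 160 kg. With 4 females and 5 castrated males, the high class was 235 to 250 days old; with 5 females and 4 castrated males, the low class was 233 to 249 days old. The labels name no transgene and no treatment. Each library carried its own animal number and was treated as 1 animal, and replicates were numbered within a class as names only. Library totals ran from 9601510 to 34588252 counts. The library codes fell into 4 runs, of which AC485 to AC488 held 1 high and 3 low libraries, U134 to U139 held 4 high and 2 low, and the others 2 of each class. No count between 0 and 2 appears in the table, so a form listed at 0 may have had a read.

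A miRNA guides an Argonaute protein to messenger RNAs that pair with its seed, bases 2 to 8 counted from its 5′ end, and represses them. The strand that is kept in Argonaute is usually much more abundant than the other arm of the hairpin. In fat cells the miR-30 family is known for promoting differentiation, with the bone transcription factor RUNX2 among its described targets, and miR-30b and miR-30c are known to raise thermogenic genes by repressing the corepressor RIP140.

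The annotated mature sequences show which members can share targets and how little separates some of them, and are written 5′ to 3′ with T for U, the seed in capitals and, for the 5p arms, the prefix ssc that marks pig sequences.
ssc-miR-30a-5p: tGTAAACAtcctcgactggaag
ssc-miR-30d: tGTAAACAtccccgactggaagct
ssc-miR-30e-5p: tGTAAACAtccttgactggaagct
ssc-miR-30b-5p: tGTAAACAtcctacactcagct
ssc-miR-30c-5p: tGTAAACAtcctacactctcagc
miR-30a-3p: cTTTCAGTcggatgtttgcagc
miR-30e-3p: cTTTCAGTcggatgtttacagc
miR-30c-3p: cTGGGAGAaggctgtttactct
miR-30c-1-3p: cTGGGAGAgggttgtttact
miR-30b-3p: cTGGGAGGtggatgtttactt
All 5 of the 5p arms carried the seed GTAAACA, and no other mature miRNA of the table had it. The 3p arms fell into 3 seed groups, TTTCAGT for miR-30a-3p and miR-30e-3p, TGGGAGA for miR-30c-3p and miR-30c-1-3p, and TGGGAGG for miR-30b-3p. Counted from the 5′ end over the shared length, miR-30a-5p and miR-30d differed by T12C, miR-30a-5p and miR-30e-5p by C13T, and miR-30d and miR-30e-5p by C12T and C13T. The sequences of miR-30b-5p and miR-30c-5p were the same up to base 18 and differed at 4 of 22 compared bases, the first of them A19T. On the other strand miR-30a-3p and miR-30e-3p differed only by G18A over 22 bases. Because of this likeness 26 read sequences were listed under more than 1 arm of the family and none under a miRNA outside it. Shared reads made up at most 0.333% of the counts of any arm, in miR-30e-5p.

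Within their extended precursors, as the deposited table numbers them, the annotated miR-30a-5p lies at bases 51 to 72 and miR-30a-3p at bases 92 to 113, miR-30d at 38 to 61 and miR-30e-5p at 39 to 62. The same miR-30c-5p sequence lies at bases 40 to 62 of both mir-30c-1 and mir-30c-2, so its reads cannot be assigned to either hairpin. In the RefSeq annotation of Sscrofa11.1, used for names only, MIR30A neighbours MIR30C-2, MIR30D neighbours MIR30B, and MIR30C-1 neighbours MIR30E, the latter pair inside the gene NFYC, which encodes a subunit of the transcription factor NF-Y. Both genes of the MIR30A and MIR30C-2 pair lie inside the annotated gene LOC102157778.

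The 5p arms made up 4.38% ± 0.583 of a library (SD, n = 18), or 43712 ± 4573 CPM (counts per 1000000 after TMM scaling between libraries). Most of this was ssc-miR-30a-5p, with 27395 ± 4264 CPM, the seventh most abundant mature miRNA of the table. ssc-miR-30d followed with 9027 ± 1323 CPM, ssc-miR-30e-5p with 5274 ± 848, ssc-miR-30b-5p with 1123 ± 148 and ssc-miR-30c-5p with 918 ± 155. As shares of the family's 5p counts these were 62.4%, 20.8%, 12.1%, 2.59% and 2.13%. So the members that differ from each other by 1 or 2 bases held nearly all 5p reads, and the pair with the other 3′ portion held little.

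The 3p arms summed to 935 ± 167 CPM. Their leading members were miR-30a-3p with 456 ± 93.6 CPM and miR-30e-3p with 393 ± 82.2. Far below them came miR-30c-3p with 61.0 ± 6.52, miR-30c-1-3p with 24.1 ± 6.41 and miR-30b-3p with 2.06 ± 0.590 CPM. The rarest arm, miR-30b-3p, rested on 13 to 122 counts per library. Sorted by mean, neighbouring arms kept their order in all 18 libraries without overlap of their ranges, except in 2 cases. miR-30b-5p was above miR-30c-5p in 15 of 18 libraries, and miR-30a-3p was above miR-30e-3p in 15 of 18. The highest library exceeded the lowest by 1.398-fold for miR-30c-3p and by 3.43-fold for miR-30b-3p, the extremes of the family.

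**Figure D1:**
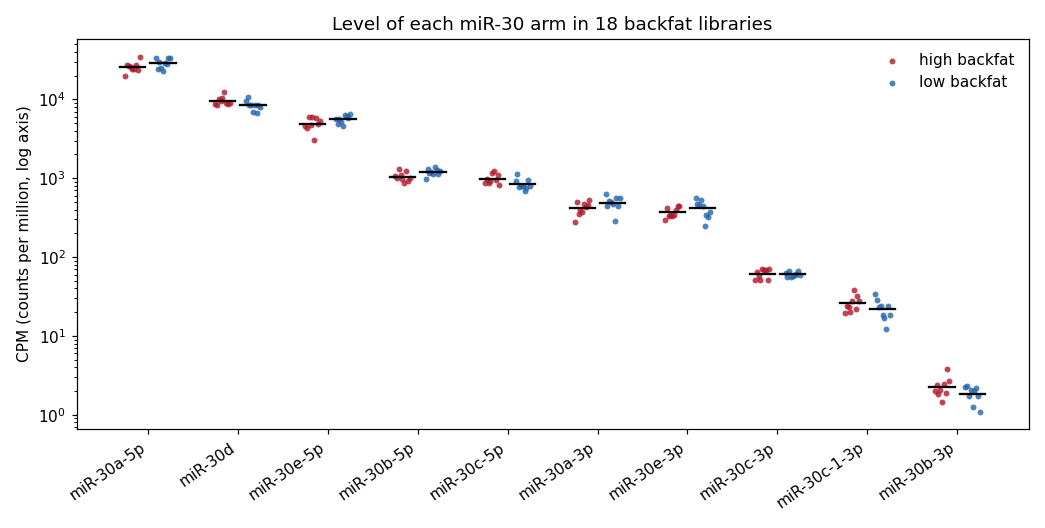
Level of each miR-30 arm per library, in CPM on a log axis. Points are libraries of the high (red) and low (blue) backfat class, 9 each, and black bars are class means. The arms span from about 27395 CPM for miR-30a-5p to 2.06 CPM for miR-30b-3p, and the classes overlap for every arm.

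Hairpins differed in how strongly the 5p arm outweighed the 3p arm. Over the 18 libraries the 5p arm held 99.8% of both arms' counts for mir-30b, 98.4% for mir-30a and 92.9% for mir-30e. Set against miR-30c-5p, whose reads cannot be divided between its hairpins, miR-30c-1-3p left the 5p arm 97.5% and miR-30c-3p left it 93.6%. Summed over the family, the 5p counts were 48.0 ± 9.49 times the 3p counts, with 36.9 and 74.9 in the lowest and highest library. On the log2 scale the ratio of arms averaged 9.13 for mir-30b, 5.92 for mir-30a and 3.76 for mir-30e.

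Fat deposition was the main contrast of the study. In the quasi-likelihood test of edgeR on summed counts, which allowed for sex, 0 of 10 arms reached the threshold (adjusted p under 0.05), as 3.62% of all 221 miRNAs did. Likewise 0 of the 10 had an unadjusted p under 0.05, against 24.4% of all 221 miRNAs. In DESeq2 0 of the 10 passed, where 22 miRNAs of the whole table did. In limma 0 of the 10 passed, and its count over all miRNAs is not given here. The 10 log2 fold changes lay between -0.21 and 0.29 with a median of -0.07 (all miRNAs -0.03), 5 positive and 5 negative. The median size regardless of sign was 0.20, close to the 0.23 of all miRNAs.

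Libraries of the high class held 827 to 1234 CPM of miR-30c-5p (median 936), those of the low class 692 to 1132 (median 791). All 9 high libraries were above the low median, yet the classes overlapped, and the log2 fold change of 0.23 ± 0.11 (SE) had an adjusted p of 0.210 in edgeR. For miR-30d the values were 8399 to 12360 CPM (median 9080) in high and 6803 to 10829 (median 8473) in low backfat. Here 8 of 9 high libraries exceeded the low median (log2 fold change 0.19 ± 0.10, edgeR adjusted p = 0.254). Both arms had their highest value in high replicate 6.

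The other 5p arms had lower means in the high class. miR-30b-5p ran from 868 to 1299 CPM (median 1013) in high and from 970 to 1368 (median 1209) in low backfat. Of the high libraries 7 of 9 were below the low median (log2 fold change -0.20 ± 0.09, edgeR adjusted p = 0.203). miR-30e-5p ran from 3054 to 5967 CPM with a median of 4842 in high and from 4647 to 6439 with a median of 5663 in low backfat. Its lowest value was again high replicate 6, and its log2 fold change was -0.21 ± 0.11 (edgeR adjusted p = 0.268), or -0.12 without that library. For the most abundant arm, miR-30a-5p, the high class ran from 19946 to 34792 CPM with a median of 25702 and the low class from 22779 to 33849 with a median of 29278. Here 8 of 9 high libraries lay below the low median, with a log2 fold change of -0.15 ± 0.11 (edgeR adjusted p = 0.402). It was -0.04 in a fit that allowed for the runs of codes and -0.06 in limma.

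Among the 3p arms the log2 fold changes were -0.21 ± 0.14 for miR-30a-3p, -0.17 ± 0.15 for miR-30e-3p, 0.02 ± 0.10 for miR-30c-3p, 0.24 ± 0.18 for miR-30c-1-3p and 0.29 ± 0.25 for miR-30b-3p (SE). Their edgeR adjusted p values ran from 0.363 to 0.924. The classes overlapped in all 5, and the widest scatter was in the arms with the fewest counts.

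**Figure D2:**
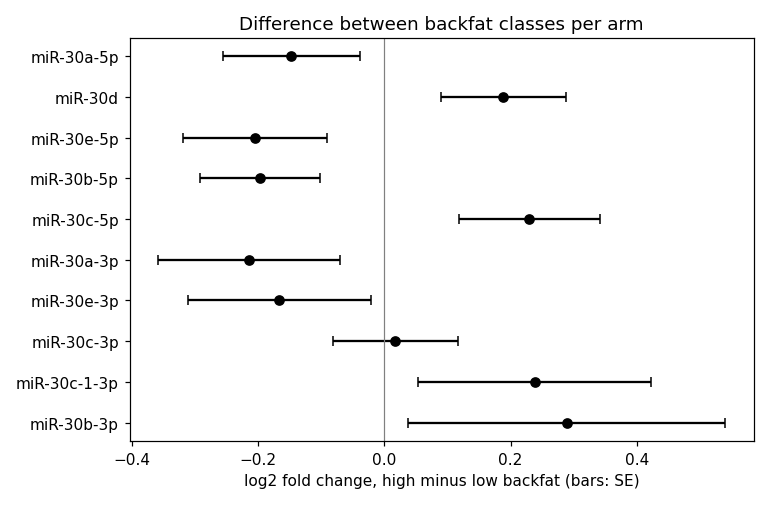
Log2 fold change of each arm, high minus low backfat, from edgeR with sex as a covariate; horizontal bars are SE. The 10 values lie between -0.21 and 0.29, and none passed the adjusted threshold.

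Within runs of library codes, the difference of mean log2 CPM between classes kept 1 sign in all 4 runs only for miR-30e-5p, from -0.24 to -0.02. For miR-30c-5p it was positive in 3 of 4 runs (-0.13 to 0.58), for miR-30d in 3 of 4 (-0.24 to 0.40), for miR-30b-5p in 1 of 4 and for miR-30a-5p in 1 of 4. The same test found no arm past the threshold between castrated males and females, where the 10 log2 fold changes lay between -0.09 and 0.13 and 0% of all miRNAs passed. Within castrated males 0 of 10 arms passed against 4.07% of all miRNAs, and within females 0 of 10 against 0%. The difference of the class effect between the sexes passed for 0 of 10 arms (0% of all miRNAs). In these 4 contrasts too 0 arms had an unadjusted p under 0.05 and 0 passed in DESeq2 or limma. Of all miRNAs, 7.69%, 22.2%, 9.05% and 11.3% had such an unadjusted p, in the order sex, castrated males, females and difference. DESeq2 called 0, 13, 0 and 3 miRNAs of the whole table in the same order.

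Since 5p arms with positive and negative fold changes stood side by side, their counts were also set against each other within each library, which needs no scaling between libraries. This comparison was added after the levels had been seen. Of the 10 pairs of 5p arms, 6 had an unadjusted p under 0.05 in exact two-sided permutation tests, the pairs that join miR-30c-5p or miR-30d with miR-30a-5p, miR-30b-5p or miR-30e-5p. None passed adjustment over all 20100 pairs of the 201 miRNAs with at least 10 counts in every library, of which 4.13% passed; 24.1% of all pairs had an unadjusted p under 0.05. The log2 ratio of miR-30d to miR-30b-5p averaged 3.20 ± 0.29 in high and 2.81 ± 0.26 in low backfat (SD, n = 9 each), a difference of 0.39 with all 9 high libraries above the low median (exact permutation p = 0.00703, adjusted 0.0805). For miR-30d over miR-30e-5p the means were 0.98 ± 0.40 and 0.58 ± 0.29, again with 9 of 9 high libraries above the low median (exact permutation p = 0.0142, adjusted 0.111). miR-30e-5p over miR-30c-5p had the widest gap, 2.30 ± 0.44 against 2.74 ± 0.33, a difference of -0.44 (exact permutation p = 0.0238, adjusted 0.143).

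The other 3 of these 6 pairs differed by -0.43 (miR-30b-5p over miR-30c-5p), -0.39 (miR-30a-5p over miR-30c-5p) and -0.35 (miR-30a-5p over miR-30d). The pairs share arms, so they are not separate observations. Differences in the remaining 4 ratios lay between -0.04 and 0.05 on the log2 scale, with adjusted p from 0.767 to 0.969 in the exact permutation test; among them miR-30d over miR-30c-5p had means of 3.28 ± 0.17 and 3.32 ± 0.15. With 1 library left out, 3 of the 6 fell below an adjusted p of 0.05 in at least 1 case, miR-30a-5p over miR-30d (0.0497 without low replicate 2), miR-30d over miR-30e-5p (0.0281 without low replicate 2) and miR-30d over miR-30b-5p (0.0389 without low replicate 1). In the same order, their highest adjusted p with 1 library left out was 0.225, 0.192 and 0.139 (exact permutation test). Without the run AC485 to AC488 it was 0.326, 0.454 and 0.333. With exact matches only, which drops every longer or shorter form, the pairs with miR-30c-5p shrank to -0.05 (miR-30e-5p), -0.04 (miR-30b-5p) and -0.11 (miR-30a-5p). Without the run AC485 to AC488 these pairs stayed at -0.41, -0.43 and -0.39 in the same order. Within runs, miR-30a-5p over miR-30d and miR-30e-5p over miR-30c-5p were lower in high backfat in 4 of 4 runs, and the other 4 of the 6 pairs kept their direction in 3 of 4.

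**Figure D3:**
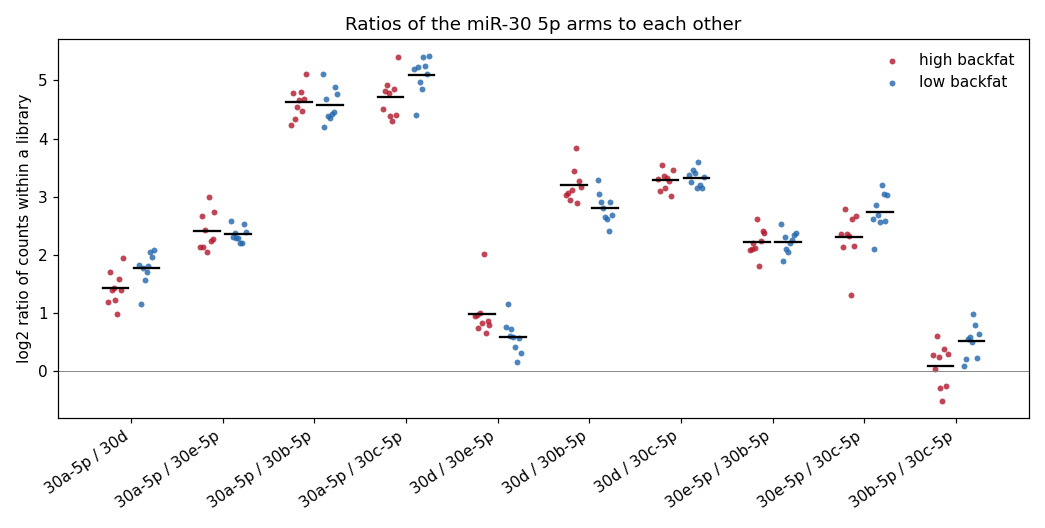
Log2 ratio of the counts of each pair of 5p arms within a library; points are libraries of the high (red) and low (blue) class, black bars class means. Class means differ by 0.35 to 0.44 in the 6 pairs that join miR-30d or miR-30c-5p with the other 3 arms and by -0.04 for miR-30d over miR-30c-5p, and the classes overlap in every pair.

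The ratio of the 5p to the 3p arm was tested in the hairpins with 1 named arm on each side and at least 10 counts of both arms in every library. It passed an adjusted p of 0.05 in 0 of 42 hairpins (exact two-sided permutation test, 0% called), and in none of the 5 of this family. The lowest value in the family was that of mir-30b, with an exact permutation p of 0.0393, adjusted 0.157 over the 42 hairpins. Its log2 ratio was 8.89 ± 0.52 in high and 9.38 ± 0.40 in low backfat, and its 3p arm rested on 13 to 122 counts per library. For mir-30c-2 the ratio was 4.02 ± 0.26 against 3.78 ± 0.24 (exact permutation p = 0.0638, adjusted 0.206). The other 3 hairpins differed by -0.07 to 0.05 on the log2 scale.

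Reads of an arm end at different bases, and the annotated form was often not the common one. The forms below are the main ends of the arms in which this matters most.
miR-30a-5p, 24 bases: tGTAAACAtcctcgactggaagct
miR-30a-5p, 20 bases: tGTAAACAtcctcgactgga
miR-30c-5p, 24 bases: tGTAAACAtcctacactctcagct
miR-30c-5p, 21 bases: tGTAAACAtcctacactctca
miR-30b-3p, 22 bases: cTGGGAGGtggatgtttacttc
miR-30c-1-3p, 22 bases: cTGGGAGAgggttgtttactcc
The annotated 22-base form of miR-30a-5p made up 2.24% ± 0.196 of the arm (SD, n = 18), while the 24-base form held 45.0% ± 3.21 and the 20-base form 23.2% ± 3.29. The 24-base form of miR-30c-5p held 65.4% ± 4.74 against 15.7% ± 2.79 for the annotated 23-base form and 2.74% ± 0.929 for the 21-base form. Among the 3p arms, the 22-base forms held 74.8% ± 7.67 of miR-30c-1-3p and 87.4% ± 13.6 of miR-30b-3p, whose annotated forms held 4.82% and 9.27%. By contrast the annotated form led in miR-30b-5p with 83.0% ± 3.00, in miR-30c-3p with 74.8% ± 3.80, in miR-30e-5p with 69.6% ± 2.45, in miR-30d with 56.4% ± 3.17, in miR-30e-3p with 55.4% ± 3.56 and in miR-30a-3p with 44.0% ± 5.23.

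Counting only forms without a mismatch that began at the annotated base, miR-30a-5p had 2 separated ends, with 53.7% ± 3.81 at base 24, 27.7% ± 3.59 at base 20 and 2.68% ± 0.258 at base 22. Among their listed ends, the nearly identical miR-30d and miR-30e-5p had a single main end at base 24, with 69.0% ± 2.62 and 88.5% ± 1.10. These 2 arms, annotated to base 24, had no listed end before base 21, while miR-30a-5p, annotated to base 22, had ends from base 19. Whether miR-30d and miR-30e-5p also had reads ending at base 20 cannot be told from the listing. The number of main ends is therefore not compared over the same range of bases. In miR-30b-5p 95.8% ± 0.586 ended at base 22. Starts varied less. The share of forms that did not begin at the annotated base was 10.5% ± 1.47 in miR-30a-3p, 7.48% ± 0.791 in miR-30e-3p and 6.51% ± 0.569 in miR-30e-5p, but 0.888% in miR-30a-5p, 0.0138% in miR-30d and 0% in miR-30b-5p. Most of the shifted reads lacked the first base, which moves the seed by 1 base, as in these examples, where capitals mark the annotated seed.
miR-30e-5p from base 2: GTAAACAtccttgactggaagct
miR-30a-3p from base 2: TTTCAGTcggatgtttgcagc
The miR-30e-5p form held 5.18% ± 0.526 of the arm, or 252 ± 39.6 CPM in high and 288 ± 15.6 CPM in low backfat (log2 fold change -0.13 ± 0.10, edgeR adjusted p = 0.860), and its own bases 2 to 8 read TAAACAT. The miR-30a-3p form held 7.51% ± 1.06. None of the 8 arms with shifted starts differed in their share between classes after adjustment over 126 miRNAs (exact permutation test, 0% called). Unadjusted, 2 of the 8 had an exact permutation p under 0.05. They were miR-30a-5p (0.929% in high against 0.847% in low backfat, exact permutation p = 0.00193) and miR-30a-3p (11.2% against 9.84%, exact permutation p = 0.0436). Sorted by this p they ranked 1 and 13 of the 126. So miRNAs outside the family also had an unadjusted exact permutation p under 0.05.

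The makeup of miR-30c-5p differed between the classes. The annotated 23-base form was 13.7% ± 1.44 of the arm in high and 17.8% ± 2.15 in low backfat (SD, n = 9 each), a difference of -4.18 percentage points (exact two-sided permutation p = 8.23e-05). High libraries ran from 11.0% to 15.2% with a median of 13.9%, and low libraries from 15.1% to 20.8% with a median of 18.5%, so the classes touched only where high replicate 1 (15.2%) lay above low replicate 1 (15.1%). Adjusted over all 164 miRNAs with such a share the p was 0.0135, and miR-30c-5p was the only 1 of the 164 to pass (0.61% called). In CPM the annotated form stood at 135 ± 21.6 in high and 149 ± 15.8 in low backfat, and the 24-base form at 676 ± 122 and 534 ± 117 (log2 fold changes -0.07 ± 0.16 and 0.41 ± 0.19, edgeR adjusted p = 0.995 and 0.530). Within the 4 runs of library codes the difference in share was -6.65, -5.98, -3.60 and -0.19 points. It stayed between -4.52 and -3.81 points when any 1 library was left out, with an adjusted p from 0.00675 to 0.121, above 0.05 without any 1 of the high replicates 1, 2, 4, 5, 6, 7, 8 and 9. Leaving out the run AC485 to AC488 gave -4.49 points (adjusted p = 0.0869).

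The position of the last base, averaged over the mismatch-free reads of an arm that began at the annotated base, was compared as a measure that needs no choice of form. It was added after seeing the data. Listed ends begin at base 19 in miR-30a-5p and miR-30b-5p, at 20 in miR-30c-5p and at 21 in miR-30d and miR-30e-5p. The sizes of the shifts in different arms therefore do not cover the same range of bases. In miR-30c-5p it was 23.73 ± 0.0434 in high and 23.63 ± 0.0618 in low backfat (SD, n = 9 each), with 9 of 9 high libraries above the low median (exact permutation p = 0.000905, adjusted over 153 miRNAs 0.0365). Of the reads so measured in this arm, 18.4% ended at base 23 and 76.2% at base 24. The call therefore rests on much the same reads as the share of the 23-base form and is not a separate observation. In miR-30b-5p the shift was much smaller, 0.00939 bases, again with 9 of 9 high libraries above the low median (exact permutation p = 0.00115, adjusted 0.0365). For miR-30e-5p the shift was 0.0200 bases (adjusted p = 0.109), for miR-30a-5p 0.157 bases (0.167) and for miR-30d 0.0337 bases (0.341), all in the exact permutation test. Of all 153 miRNAs 3.27% passed, all 5 of them toward a later end in high backfat, and 111 of the 153 differences were positive with a median of 0.0161 bases, so later ends in the high class were common in the table.

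In the table's terms this is a smaller share of reads at early ends. miR-30c-5p had 16.0% ± 1.70 at base 23 and 79.6% ± 2.51 at base 24 in high backfat, against 20.8% ± 2.72 and 72.9% ± 3.62 in low backfat. In miR-30a-5p 26.1% ± 3.18 ended at base 20 in high and 29.3% ± 3.38 in low backfat. Both calls on the last base were lost when the run AC485 to AC488 was left out (adjusted p = 0.112 for both). They were also lost without any 1 of several single libraries, for miR-30c-5p high replicates 2 to 8 or low replicate 9, and for miR-30b-5p any high replicate or low replicate 9, where the shifts kept their sign at 0.0926 to 0.114 and 0.00736 to 0.0105 bases. In the run U966 to U969 both differences were slightly negative (-0.00394 and -0.000144 bases), and in the other 3 runs they were positive. For miR-30e-5p the adjusted p reached 0.0309 at the lowest with 1 library left out, and it fell below 0.05 without low replicate 7 and without high replicate 1.

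**Figure D4:**
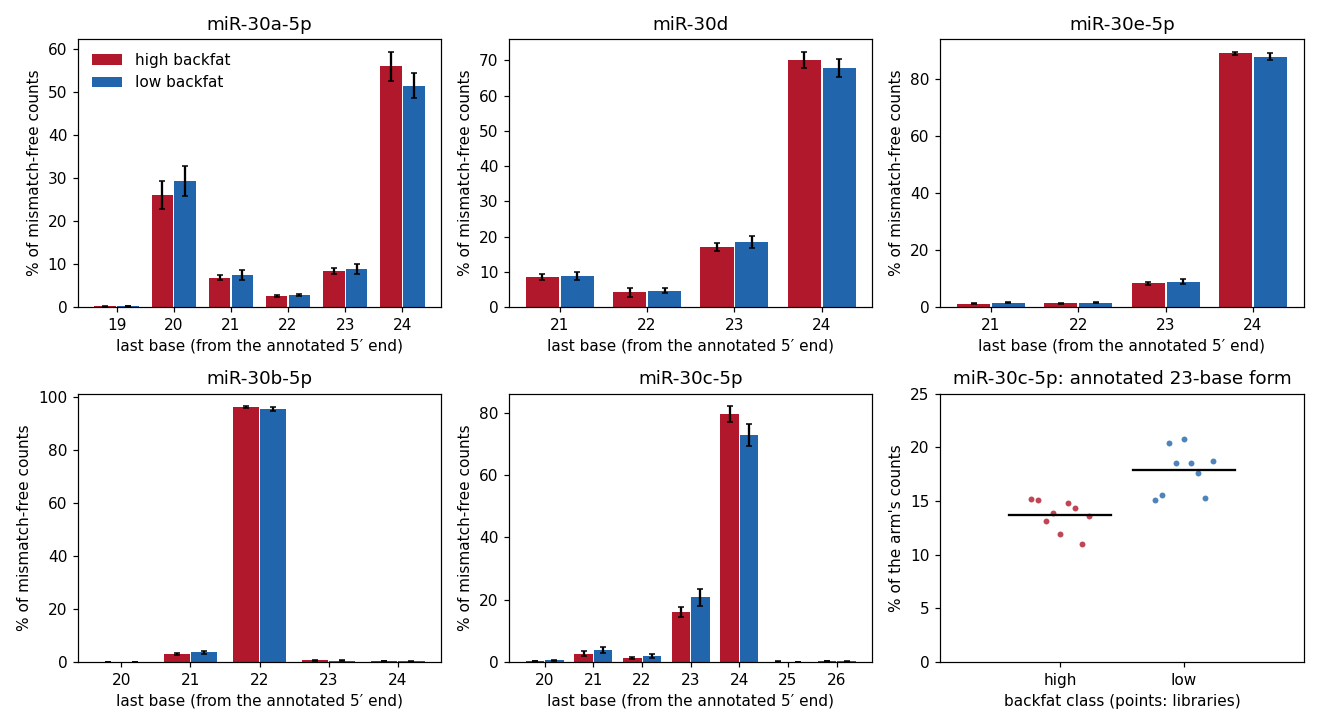
Last base of mismatch-free reads of the 5p arms, as mean percent of counts per class (red high, blue low; error bars SD over 9 libraries), and, at lower right, the percent of miR-30c-5p counts in the annotated 23-base form per library (points) with class means (black bars). The 20-base and 24-base ends of miR-30a-5p stand apart from the single main ends of the other arms, and the 23-base form of miR-30c-5p is at 13.7% in high and 17.8% in low backfat. No end before base 21 is listed for miR-30d and miR-30e-5p.

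Single sequence forms were tested as well. Of the 1190 forms of the family 494 had enough counts, and none passed an adjusted p of 0.05 in edgeR, where 0% of the 7330 entries of the table passed (an entry is 1 sequence under 1 precursor). At an unadjusted p under 0.05 there were 22 of the 494, 4.45% against 8.77% of all entries, 11 higher and 11 lower in high backfat. Of the 11 lower forms 9 were forms of miR-30e-5p, while 4 of the higher ones were forms of miR-30c-5p and 4 of miR-30d. The forms tested numbered 83 for miR-30e-5p, 32 for miR-30c-5p and 95 for miR-30d. Forms of 1 arm share its level, so they are not separate observations. The lowest adjusted p, 0.130, belonged to a pair of shortened miR-30e-5p forms, the second of which carries the mismatch G22A at its last base.
miR-30e-5p, 21 bases: tGTAAACAtccttgactggaa
miR-30e-5p, 22 bases with G22A: tGTAAACAtccttgactggaaa
miR-30d, 25 bases with G25A: tGTAAACAtccccgactggaagcta
The 21-base form stood at 46.6 ± 8.60 CPM in high and 67.9 ± 9.20 in low backfat (SD, n = 9 each), with a log2 fold change of -0.49 ± 0.12 (SE). Its G22A counterpart stood at 14.3 ± 3.23 and 21.5 ± 3.14 CPM (-0.55 ± 0.14). The third lowest p belonged to the 25-base form of miR-30d with the mismatch G25A, at 3.44 ± 0.562 and 2.16 ± 0.678 CPM (0.72 ± 0.22, edgeR adjusted p = 0.221).

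DESeq2 was less strict on the same entries. It called 15 of the family's 526 entries, 2.85% against 3.52% of all entries. These entries were 12 distinct forms, 6 higher and 6 lower. The 6 higher forms were 25 or 26 bases long, from miR-30a-5p, miR-30c-5p and miR-30d, and 3 of them end in the mismatch G25A. The 6 lower forms were 21 to 23 bases long, 5 from miR-30e-5p and 1 from miR-30a-5p, and both forms printed above as the lowest in p were among them. When only entries with a mean of at least 10 CPM were tested in edgeR, these 2 miR-30e-5p forms passed (adjusted p = 0.0440 and 0.0399), in a set where 2.92% of entries passed.

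Mismatched reads fell into kinds that behaved differently between libraries. Reads with the substitution A6C, inside the shared seed, made up 3.24% ± 2.71 of miR-30a-5p (SD, n = 18), from 0.0464% in high replicate 1 and 0.0483% in high replicate 3 to 7.10% in high replicate 4 and 7.10% in low replicate 3. The other 5p arms were high and low in the same libraries, with 6.80% for miR-30b-5p and 6.54% for miR-30e-5p in high replicate 4. Within a library the arms could still differ, as in low replicate 2, where miR-30e-5p had 1.14% and miR-30a-5p 3.08%, and in low replicate 4, with 4.90% and 6.78%. Over the 5p arms the median per library ran from 0.0392% to 6.89%. In 17 miRNAs outside the family that also have A at base 6 and at least 1000 counts in every library, the median of the same substitution ran from 0% to 6.19% over the libraries, lowest and highest in the same libraries as in the family. Mismatches at base 3 had another order of libraries, with 12.3% of miR-30c-5p in high replicate 1 and 1.05% in high replicate 8, and 7.17% to 8.38% in the run AC485 to AC488. In 11 miRNAs outside the family that also have T at base 3, the median of such mismatches ran from 0.544% to 8.37% over the libraries. The medians inside and outside the family had a Pearson r of 0.990 over the 18 libraries for base 3 and of 0.994 for A6C. Both kinds differed little between classes: A6C made up 3.08% ± 2.67 of miR-30a-5p in high and 3.40% ± 2.91 in low backfat, and base 3 mismatches 5.75% ± 4.22 and 5.09% ± 2.80. Such a table cannot separate sequencing errors from changes in the RNA, and the source of these reads was not tested.

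**Figure D5:**
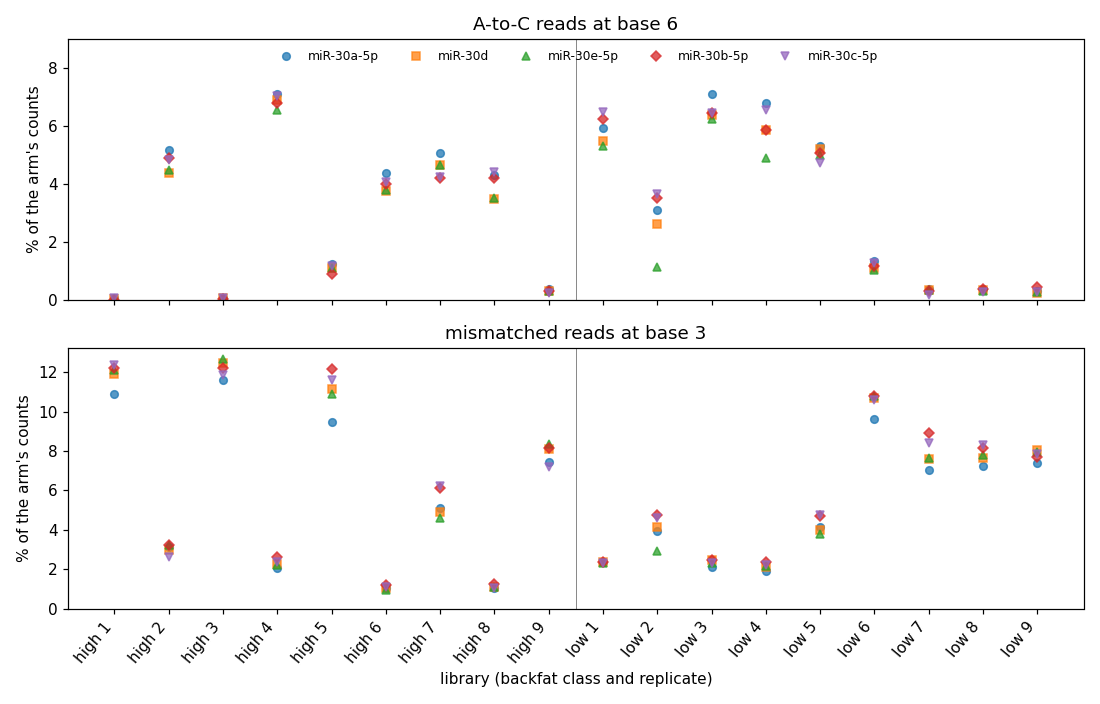
Percent of each 5p arm's counts that carry the substitution A6C (top) and any mismatch at base 3 (bottom), per library (high replicates left, low replicates right of the grey line; symbols are arms). The 5 arms are high and low in the same libraries, up to 7.10% for A6C, and both classes hold high and low libraries; miR-30e-5p in low replicate 2 stands below the other arms.

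Mismatches near the 3′ end ranged less between libraries for some substitutions and widely for others. In miR-30e-3p the form ending in C22T held 12.2% ± 2.47 of the arm (SD, n = 18), from 8.57% to 20.5%. G25T held 2.13% ± 0.233 of miR-30e-5p and 1.55% ± 0.204 of miR-30d, and G22A 2.26% ± 0.327 of miR-30d, and the highest library exceeded the lowest by at most 1.72-fold in each of these 3. By contrast T24G ran from 0.171% to 1.35% of miR-30c-5p, a 7.92-fold range, and from 0.151% to 1.26% of miR-30e-5p, an 8.40-fold range. These ranges came from high replicate 2 (1.35% and 1.26%) and low replicate 2 (1.15% in both arms). The next highest library, high replicate 4, had 0.487% and 0.451%.

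Other miRNAs tied to fat cells were counted in the same edgeR fit, from lists written with earlier results of these data known. Of 12 tested miRNAs known to promote fat cell differentiation 0 passed in either direction (5 positive, 7 negative, median log2 fold change -0.04), with miR-143-3p at -0.03 ± 0.13 and miR-103 at 0.23 ± 0.10. The widest values of this list were 1.17 ± 0.35 for miR-146b and -0.94 ± 0.30 for miR-335 (both edgeR adjusted p = 0.0705). Of 12 known to restrain it, 3 had positive and 9 negative log2 fold changes, with a median of -0.10. In this list 2 of 12 passed, where 3.62% of all 221 miRNAs did: miR-222 rose (0.89 ± 0.22) and let-7c fell (-0.28 ± 0.07, both edgeR adjusted p = 0.0486). The tissue label was set beside markers of other cells. The 4 tested skeletal muscle miRNAs, miR-1, miR-133a-3p, miR-133b and miR-499-5p, all had negative log2 fold changes with a median of -1.24 and 0 past the threshold; their sum ran from 48.3 to 130 CPM in high and from 78.9 to 211 in low backfat. Sums for red blood cells ran from 2620 to 10405 CPM, for white blood cells from 1076 to 3386 and for endothelium from 11374 to 41786 over both classes, the single epithelial marker tested, miR-205, ran from 1.24 to 49.5, and the liver's miR-122 from 0 to 43.1. Of these 14 markers 0 passed between classes. The part of such cells in the miR-30 values was not tested, and in a bulk tissue fewer cells of a type and less RNA per cell cannot be told apart.

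As a description, the log2 CPM of 211 miRNAs outside the family was set against that of the summed 5p arms over the 18 libraries. Over all 18 libraries miR-99a was most alike, with a Pearson r of 0.56 (Spearman rho 0.57), followed by miR-769-3p (0.50), miR-148a-5p (0.49), miR-210 (0.48) and miR-582 (0.48). At the other end stood miR-505 with an r of -0.75 (rho -0.76), then miR-122 (-0.59), miR-150 (-0.58), miR-504 (-0.56) and miR-2320-3p (-0.54). The median over the 211 was 0.004, and none passed adjustment over the 211 (lowest adjusted permutation p = 0.0907, miR-505). Without the 2 libraries farthest from the family's median, r was -0.77 for miR-505, 0.71 for miR-148a-5p, 0.61 for miR-99a, 0.49 for miR-582, 0.43 for miR-769-3p and 0.22 for miR-210, so the order of the most alike changed.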

How the data were processed

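Backfat RNA was extracted with Trizol and sequenced from TruSeq Small RNA libraries on an Illumina GAII, per the labels' protocols, although sample titles call the material mRNA. The authors deposited raw counts per sequence variant, and a normalised signal equal to the deposited count divided by 1 size factor per library (0.464 to 1.93). The submitters' processing notes name Bowtie 0.12.7, HTSeq, DESeq2 1.4.5 and the build Sscrofa10.2; the sources used here do not give trimming or allowed mismatches. 2 columns matched no sample and were not used.

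Each sequence was counted once per mature miRNA. edgeR 4.0.16 (R 4.3.3; filterByExpr minimum count 10, TMM, quasi-likelihood F test, Benjamini-Hochberg, threshold 0.05, sex as a term) was fitted on all miRNAs or all entries. SE came from the F statistic; the prior count for log2 CPM was 2. Alternatives were DESeq2 1.42.0, limma 3.58.1 on log2(deposited normalised signal + 1), other scalings, filters and covariates, and each library left out. Ratios of arms (at least 10 counts per library) and shares (at least 100) were compared by exact permutation of 9 against 9 (48620 splits; Python 3.11.15, NumPy 2.4.6, SciPy 1.17.1), adjusted over the whole table (pairs of miRNAs over all pairs) and not, as first planned, over the family alone. Figures used Matplotlib 3.10.9. Correlations used 100000 permutations. Scripts were tested on simulated data.

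Members and lists were chosen with earlier results of these data known. Named forms were the 3 most abundant of each arm, the 3 of lowest p and the leading form with a shifted start; other named forms were chosen after their values were seen. Sequences come from the deposited table. No genome of the authors' build was used here, so no genomic coordinates are given. Depth sets the error: miR-30b-3p had 13 to 122 counts per library.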

Additional observations from a re-analysis of the deposited data

Results flagged for a closer look

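In the low class the log2 ratio of 5p to 3p counts for mir-30c-2 was 4.32 in low replicate 2, far from the next highest low library at 3.86. Its gap to that library was 0.592 of the class range. It was the only extreme among 30 sets of 9 values checked (10 arms and 5 ratios in 2 classes), and chance marks about 1 in 20 such sets.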

How the results depend on the processing

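No paired analysis was possible because replicate numbers were given in accession order and pair no animals. In the 5 contrasts of summed miRNAs 0 arms passed under every alternative run. Single forms passed in 2 settings, 12 with DESeq2's Wald test and 2 when entries had to average 10 CPM. The summed 5p level was 43738 CPM with shared sequences counted under each arm and 10443 with exact matches only. With exact matches only, the log2 fold change of miR-30c-5p turned to -0.0592, the arm ratios of mir-30a and mir-30c-2 to -0.134 and -0.160, and among pairs miR-30a-5p over miR-30e-5p turned to -0.0616, miR-30a-5p over miR-30b-5p to -0.0692 and miR-30d over miR-30c-5p to 0.381 (exact permutation, adjusted p = 0.0569). The log2 fold changes of the other arms kept their sign but moved: over the alternatives other than single libraries left out, miR-30a-5p ran from -0.17 to -0.04, miR-30b-5p from -0.22 to -0.11, miR-30d from 0.13 to 0.31, miR-30e-5p from -0.23 to -0.13, miR-30a-3p from -0.24 to -0.04, miR-30e-3p from -0.32 to -0.03, miR-30c-1-3p from 0.08 to 0.35 and miR-30b-3p from 0.20 to 0.37; with each library left out, miR-30e-5p ran from -0.26 to -0.12, miR-30e-3p from -0.23 to -0.10, miR-30c-1-3p from 0.14 to 0.33 and miR-30b-3p from 0.17 to 0.35. A mean of at least 10 CPM turned miR-30c-3p to -0.0100. Without the libraries AC485 to AC488 the arm ratios of mir-30c-1 and mir-30e turned to 0.155 and 0.128 and miR-30e-5p over miR-30b-5p to 0.0202, and 0 arms passed on exact matches, as against 1. With each library left out, that count was 0 to 1, and these values crossed 0: miR-30c-3p -0.0122 to 0.0576, mir-30c-1 -0.0895 to 0.0560, mir-30e -0.133 to 0.0394, miR-30a-5p over miR-30b-5p -0.0202 to 0.106, miR-30a-5p over miR-30e-5p -0.0242 to 0.0932, and miR-30e-5p over miR-30b-5p -0.0593 to 0.0411. The cause was not tested. Leaving out the 4 libraries, the measure of the last base, the pairs of 5p arms and the adjustment over all pairs were chosen after seeing the data.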

Other observations

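Members of the family did not vary as 1 block between animals. Of 45 pairs of arms, 4 passed for the Pearson correlation of log2 CPM over 18 libraries, with permutation p adjusted over all 24310 pairs of tested miRNAs, of which 2.16% passed. Both classes were pooled, and the arms share 1 scaling. The median size of r regardless of sign was 0.23 over the 45 pairs and 0.26 over all pairs. miR-30c-5p and miR-30d, which come from different hairpins, varied together (r = 0.76, rho = 0.71, permutation p = 0.0002, adjusted 0.0249). miR-30c-1-3p went with miR-30c-5p, the other arm of its hairpin (r = 0.74, rho = 0.74, adjusted permutation p = 0.0303), and with miR-30d (r = 0.77, rho = 0.71, adjusted permutation p = 0.0258). On the 3p side miR-30a-3p went with miR-30e-3p (r = 0.75, rho = 0.65, adjusted permutation p = 0.0280). By rank none of these 4 passed (adjusted permutation p = 0.0729 to 0.146). Values on the other side of 0 did not pass: r was -0.67 for miR-30b-5p with miR-30c-1-3p (adjusted permutation p = 0.0599) and -0.62 for miR-30b-5p with miR-30c-5p (0.0985). Without the 2 libraries farthest from the median of the first-named arm, r was 0.61 for miR-30c-5p with miR-30d, 0.56 for miR-30c-1-3p with miR-30d, 0.64 for it with miR-30c-5p and 0.57 for the 3p pair. The 5p arms of neighbouring genes had negative values: -0.38 for miR-30b-5p with miR-30d, -0.35 for miR-30a-5p with miR-30c-5p and -0.56 for miR-30c-5p with miR-30e-5p, none past the threshold. In the pairs with miR-30c-5p its reads cannot be assigned to the neighbouring hairpin. The 3p arms of neighbouring genes had positive values, 0.44 for miR-30c-1-3p with miR-30e-3p and 0.37 for miR-30a-3p with miR-30c-3p, also not past the threshold.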
